A study of Mus musculus with 12 samples.

Results

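The genes described here are 34 adipocyte and lipid storage genes, chosen by name, with earlier results of these data known. They were looked up by gene ID without the version number, and all 34 were found among the 47643 gene IDs of the deposited tables. The list holds 3 hormones, 6 genes for the uptake of fatty acids, glycerol and glucose, 6 proteins of the lipid droplet coat, 6 genes of lipolysis and its control, 7 genes of triglyceride synthesis, 3 transcriptional regulators and 3 others.

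The study sequenced poly(A) RNA from the skin of C57BL/6 mice at 10 weeks of age. Its 12 libraries came from whole skin and from an epidermis preparation, each with 3 libraries of wild type (WT) mice and 3 of conditional Adam17 knockout (KO) mice, which gives the 4 groups Skin WT, Skin KO, Epidermis WT and Epidermis KO. The KO mice carried floxed Adam17 alleles and Sox9-Cre, so that the deletion depends on where Sox9 drives the recombinase. Sox9 is known for its activity in the hair follicle and sebaceous gland lineage. The labels do not say whether the WT mice carried floxed alleles or the recombinase, nor how the epidermis was separated from the rest of the skin. Nor do they tie each library to a mouse of its own, so the p-values cover the spread between these libraries alone, and that spread may be technical.

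White adipocytes of the skin lie under the dermis and around the hair follicles, and store triglyceride in a single large droplet. Fatty acids reach them through lipoprotein lipase and CD36, are built into triglyceride by a chain of acyltransferases, and are held behind perilipins and CIDE proteins at the droplet surface. Lipolysis runs in steps through ATGL (Pnpla2), hormone-sensitive lipase (Lipe) and monoacylglycerol lipase (Mgll), and PPARG with C/EBP proteins drives much of the adipocyte programme. Keratinocytes and sebocytes make lipids as well, with some of the same enzymes.

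The DNA before the start of 4 members shows the letters that were searched for such regulators. RefSeq (GRCm38.p6) held a promoter for 24 of the 34 members. The 250 bases before each start were searched on both strands for the direct repeat bound by PPARG with its partner RXR (2 copies of AGGTCA with any 1 base between them) and for AGGTCA alone. Also searched were TTGCNNCAA and TTGCGCAA, the C/EBP palindrome, which was added after the data were seen. TTGCNNCAA was chosen for C/EBP but lacks the GCAA that ends the palindrome, so a match to it need not be a C/EBP site. The lines give 100 bases each on the gene's own strand, for 2 hormones and a synthesis enzyme that were lower in KO skin (Adipoq, Lep, Lpin1) and for a droplet coat gene that was higher there (Plin2), with motif matches in capitals.
Adipoq, chr16:23146436-23146535, plus strand, bases 100 to 1 before the start: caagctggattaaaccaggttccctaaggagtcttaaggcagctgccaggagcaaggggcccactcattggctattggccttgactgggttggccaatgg
Lep, chr6:29060120-29060219, plus strand, bases 101 to 2 before the start: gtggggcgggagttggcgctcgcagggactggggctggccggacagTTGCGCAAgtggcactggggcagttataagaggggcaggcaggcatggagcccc
Lpin1, chr12:16610967-16611066, minus strand, bases 100 to 1 before the start: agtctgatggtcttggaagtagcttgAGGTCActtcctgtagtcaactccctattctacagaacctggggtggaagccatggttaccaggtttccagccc
Plin2, chr4:86670210-86670309, minus strand, bases 250 to 151 before the start: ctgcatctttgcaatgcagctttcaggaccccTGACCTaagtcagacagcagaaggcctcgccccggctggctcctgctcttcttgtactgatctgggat

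The capitals in Lep are TTGCGCAA, 55 to 48 bases before its start, a motif found before 0.185% of the 27025 genes in the table and before no other member. Those in Lpin1 are AGGTCA on the gene's strand, and those in Plin2 are the same site read on the opposite strand. AGGTCA stood before 7 of the 24 members (Aqp7, Plin2, Cd36, Pparg, Ucp1, Lpin1 and Plin5) and before 15.763% of all genes. The stretch before Adipoq held none of the motifs. TTGCNNCAA was found before Thrsp and before 1.983% of all genes, and the full direct repeat before none of the 24 members and 0.041% of all genes. These are matches of letters in a short window and say nothing of binding.

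The libraries held between 12208522 (Epidermis WT 1) and 16743144 (Skin WT 2) expected counts. A count of 3 is worth 0.179 to 0.246 CPM, the deposited count scaled to library size. Levels below are in CPM, after TMM scaling, a correction for differences in RNA composition between libraries, and they are listed in the order of replicates 1, 2 and 3. Adam17 itself was lower in every KO library of either preparation, at 72.3, 96.3 and 94.1 CPM in Skin WT against 41.6, 52.1 and 52.5 CPM in Skin KO. The epidermis libraries held 78.9, 86.4 and 79.5 CPM (WT) and 48.4, 58.1 and 47.3 CPM (KO). Fold changes and p-values were computed by the quasi-likelihood test of edgeR, p-values are Benjamini-Hochberg adjusted across every gene tested, and a gene is called where the adjusted p is under 0.05. Some libraries stood apart. The summed level of 15 skeletal muscle markers was 92440, 12160 and 30740 CPM in Skin WT but 4302, 1523 and 885 CPM in Skin KO. Reads of 4 Y-linked genes were absent (0 reads) from all WT libraries and from Skin KO 2. Skin KO 1 and 3 held 1728 and 1034 such reads, and the Epidermis KO libraries 1781, 213 and 679. In the epidermis, genotype and Y-linked reads thus cannot be told apart.

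Most adipocyte genes fell in KO skin, and 5 lipid genes rose. Of the 34 members 33 passed the filter on low counts (the exception was Ucp1), and 25 of these fell while Plin2, Cidea, Mgll, Dgat1 and Ppargc1b rose. Pnpla3, Pparg and Adipor2 were not called. Among all 14907 genes tested, 23.3% were called lower and 22.2% higher. Aqp7 and Plin5 passed the filter through Skin WT alone, so that their direction was set by it. Of the other 31, 23 fell and 5 rose, with a median log2 fold change of -2.03, against -0.001 over all genes tested. All 25 fallen members lay lower in every KO library than in any WT library, as did 32.2% of all genes, and the 5 risen members lay higher in every KO library, as did 25.8%. At least 2-fold changes were called lower in 22 members (15.9% of all genes) and higher in 5 (10.3%). In RNA from whole tissue, fewer adipocytes, less RNA of these genes per adipocyte and a changed share of other tissues cannot be told apart. The sums of muscle markers (above) and of keratinocyte markers (below) also differed between the skin groups, though 4 of the 7 keratinocyte markers were not called.

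**Figure D1:**
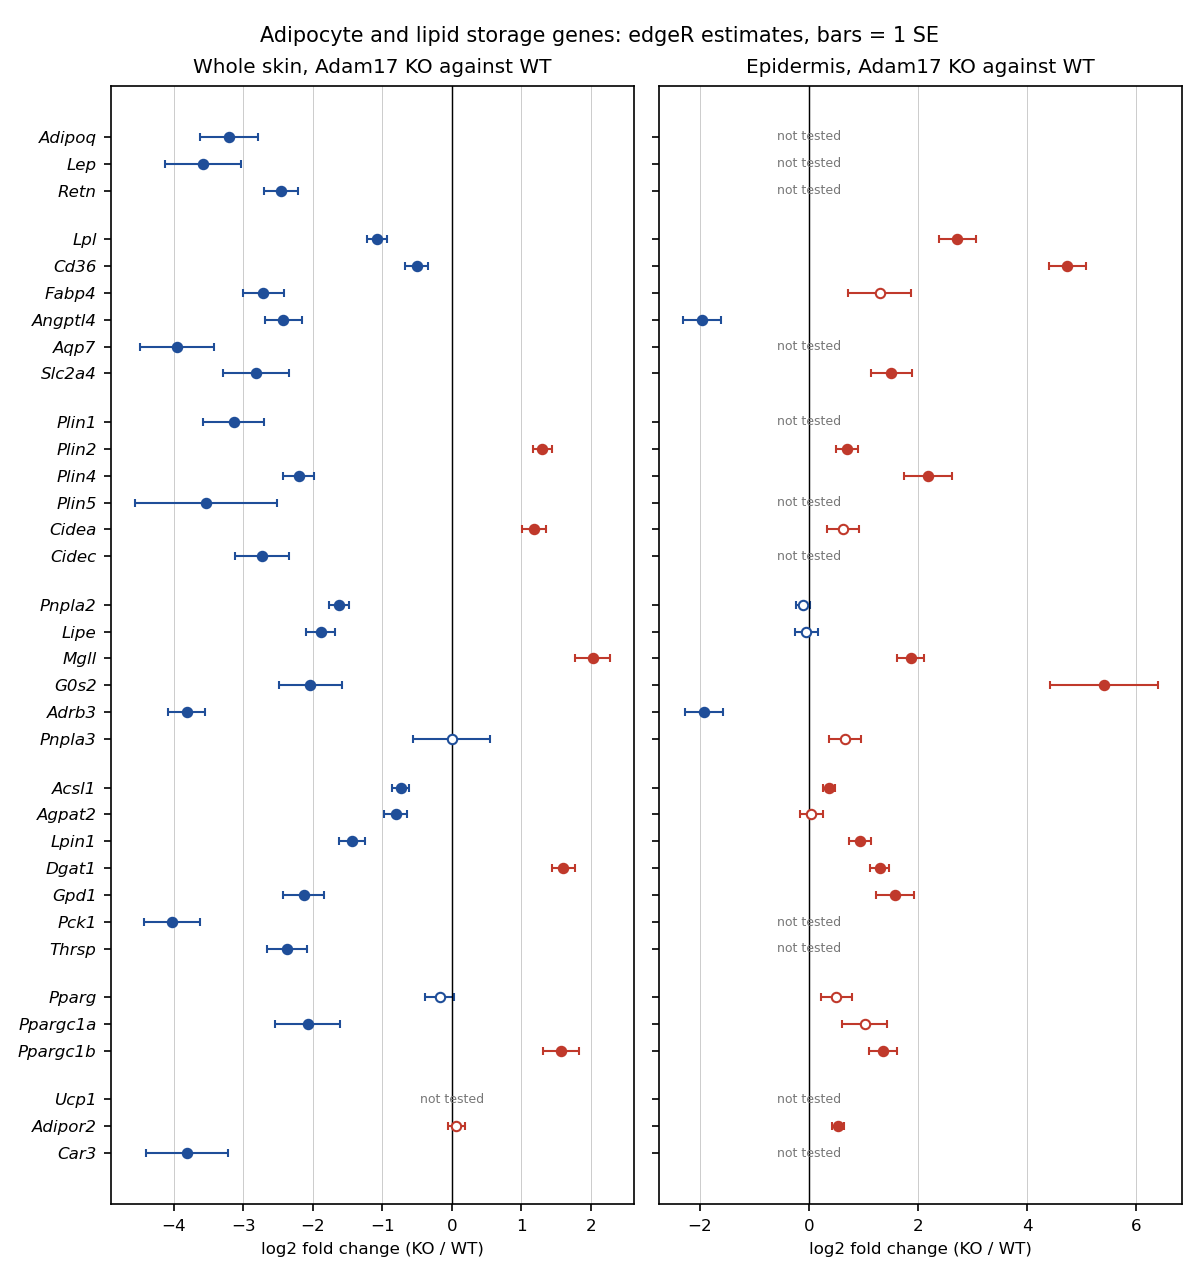
Log2 fold change of each member, KO against WT, in whole skin (left) and epidermis (right), with bars of 1 standard error; blue points lie below 0 and red points above, filled points have an adjusted p under 0.05, and members below the count filter are marked as not tested. In skin 25 filled points lie left of 0 and 5 right of it, and in epidermis 2 lie left and 13 right.

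All 3 hormones fell. Adiponectin (Adipoq, ENSMUSG00000022878.5, chromosome 16, 23146536 to 23158028, plus strand), the most abundant secreted protein of fat cells, stood at 230, 277 and 345 CPM in Skin WT and 39.5, 12.8 and 34.4 in Skin KO. Its log2 fold change was -3.21 (adjusted p = 0.00133, SE 0.42), or 9.22-fold lower. Leptin (Lep), which signals the size of fat stores, went from 30, 69.5 and 68.7 to 6.46, 1.5 and 5.2 CPM. The WT values of leptin spread more than those of adiponectin, with Skin WT 1 lowest, but no KO library came near them, and the log2 fold change was -3.58 (adjusted p = 0.00254, SE 0.55). Resistin (Retn), a hormone made by mouse fat cells, went from 54.8, 81.4 and 76 to 14.8, 8.35 and 13.1 CPM, a log2 fold change of -2.46 (adjusted p = 0.00057, SE 0.25). In each of the 3 hormones Skin KO 2 held the lowest level. Without the KO libraries with Y-linked reads, which leaves Skin KO 2 alone, the falls of Adipoq and Lep were 20.5-fold and 34.3-fold (adjusted p = 0.00601 and 0.0138).

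The 6 uptake genes fell too, by very different amounts. Aqp7, the glycerol channel of fat cells, was low in WT at 3.71, 5.64 and 7.78 CPM and near the limit of detection in KO at 0.213, 0.143 and 0.634 CPM, a log2 fold change of -3.96 (adjusted p = 0.00151, SE 0.53). Its fold size depended on Skin KO 3, since without that library it was 28.6-fold in place of 15.5-fold. Fabp4, the fatty acid carrier of the adipocyte cytoplasm, was nearly equal in the WT libraries at 888, 909 and 914 CPM and stood at 171, 76.8 and 141 CPM in KO. That is a log2 fold change of -2.71 (adjusted p = 0.000697, SE 0.29). Slc2a4, the insulin-regulated glucose transporter of fat and muscle, went from 158, 44.5 and 81.2 to 16.6, 11.1 and 10.1 CPM (-2.82 on the log2 scale, SE 0.48), and its highest WT level was in the library with the most muscle RNA, Skin WT 1. Angptl4, a secreted inhibitor of lipoprotein lipase, went from 56.3, 43 and 52 to 9.08, 5.71 and 11.6 CPM (-2.43 on the log2 scale, SE 0.27). The adjusted p was 0.00362 for Slc2a4 and 0.000739 for Angptl4.

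Lipoprotein lipase and CD36 fell least among the uptake genes. Lpl (ENSMUSG00000015568.15, chromosome 8, 68880491 to 68907448, plus strand) stood at 499, 449.5 and 571 CPM in Skin WT and 226, 242 and 207 in Skin KO, a log2 fold change of -1.08 (adjusted p = 0.00144, SE 0.14). Cd36, the fatty acid receptor (ENSMUSG00000002944.15, chromosome 5, 17781690 to 17888801, minus strand), went from 189.5, 217 and 288 to 144, 164 and 151 CPM, a log2 fold change of -0.51 (adjusted p = 0.0445, SE 0.17). The Cd36 libraries did not overlap, but the gap between Skin WT 1 and Skin KO 2 was small. With the replicate number as a block, the adjusted p of Cd36 was 0.0552, so the call was lost in the paired fit. It was lost as well without any 1 of Skin WT 2, Skin WT 3 and the 3 KO libraries (adjusted p from 0.0708 to 0.138). Both genes are also made outside fat, by macrophages and muscle among others, and Cd36 by endothelium as well.

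The droplet coat genes split into 4 that fell and 2 that rose. Perilipin 1 (Plin1, ENSMUSG00000030546.14, chromosome 7, 79720218 to 79732903, minus strand), the main coat protein of adipocyte droplets, went from 65, 120.3 and 156 to 15.5, 6.14 and 14.7 CPM, a log2 fold change of -3.14 (adjusted p = 0.00181, SE 0.44). Perilipin 2 (Plin2, ENSMUSG00000028494.12, chromosome 4, 86648386 to 86670060, minus strand), which coats the droplets of most other cells, went the other way, from 134, 119.7 and 126 to 284, 331 and 263 CPM. Its log2 fold change was 1.30 (adjusted p = 0.000654, SE 0.14), and all 3 KO libraries lay above the highest WT library. Cidea, a droplet fusion protein of brown fat and sebaceous cells, was level across WT at 47, 46.4 and 46.3 CPM and stood at 89.2, 125 and 83.9 CPM in KO, a log2 fold change of 1.18 (adjusted p = 0.00201, SE 0.17). Its relative Cidec, the fusion protein of white fat, went from 149, 205 and 251 to 38.7, 14 and 32.6 CPM, a log2 fold change of -2.73 (adjusted p = 0.00185, SE 0.39). The 2 CIDE genes thus moved in opposite directions.

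Plin4, a coat protein of fat and muscle, went from 113, 140.2 and 191 to 36.3, 26.1 and 28 CPM, a log2 fold change of -2.20 (adjusted p = 0.000555, SE 0.22). Plin5, the perilipin of oxidative tissues such as muscle, was the least certain of the coat genes. It stood at 23.8, 2.04 and 5.83 CPM in WT and 1.7, 0.357 and 0.507 CPM in KO, a log2 fold change of -3.54 (adjusted p = 0.0273, SE 1.02). Most of its WT reads came from Skin WT 1, which had the highest sum of muscle markers. Without that library the log2 fold change was -2.11 (adjusted p = 0.053), and the call was also lost without Skin KO 2 or Skin KO 3 (0.093 and 0.0901). Without Skin KO 1 the fall was 22.3-fold (adjusted p = 0.0335). Whether muscle RNA takes part in this fall was not tested.

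**Figure D2:**
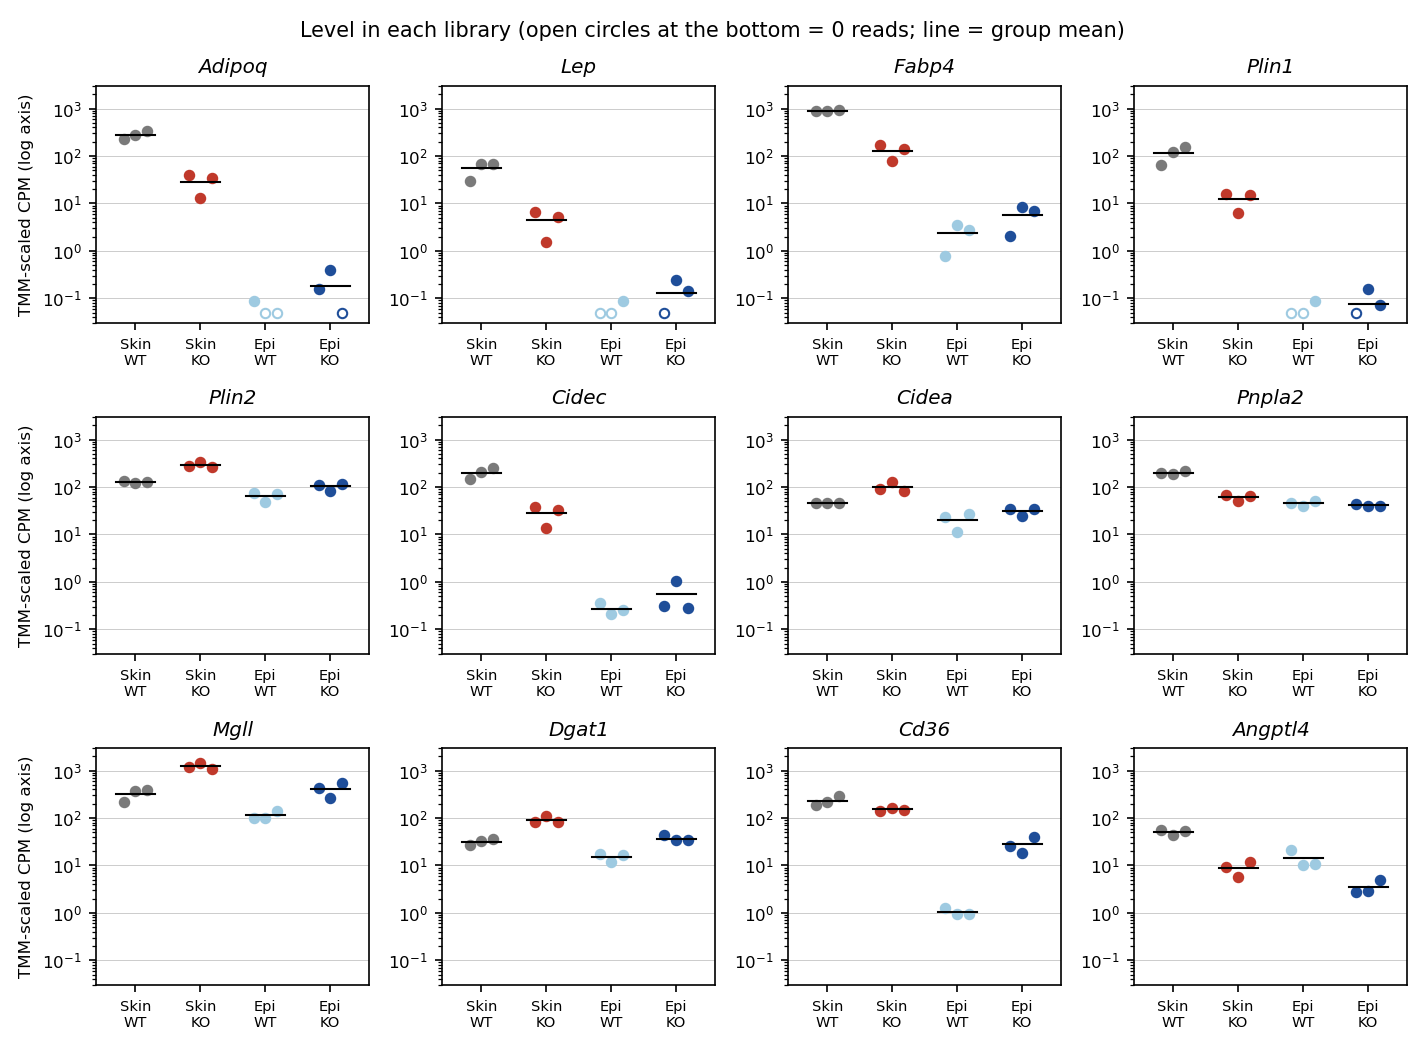
TMM-scaled CPM on a log axis for 12 members, with 1 point per library, a line at each group mean and open circles at the bottom for libraries with 0 reads. Adipoq, Lep, Fabp4, Plin1, Cidec, Pnpla2 and Angptl4 are lower in all 3 Skin KO libraries than in Skin WT, Plin2, Cidea, Mgll and Dgat1 are higher, and Cd36 is slightly lower in Skin KO and higher in Epidermis KO.

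Along the lipolysis chain the first enzymes and the last one moved apart. Pnpla2 (ENSMUSG00000025509.15, chromosome 7, 141455198 to 141460743, plus strand), which removes the first fatty acid from triglyceride, went from 194, 185 and 223 to 68.5, 51.9 and 63.1 CPM, a log2 fold change of -1.62 (adjusted p = 0.00036, SE 0.14). Lipe (ENSMUSG00000003123.15, chromosome 7, 25379527 to 25398710, minus strand), which acts on diacylglycerol, went from 100.1, 145 and 157 to 40.1, 27.6 and 34.2 CPM, a log2 fold change of -1.89 (adjusted p = 0.000767, SE 0.21). Mgll (ENSMUSG00000033174.17, chromosome 6, 88724412 to 88828360, plus strand), which splits monoacylglycerol, was higher in every KO library. Its levels were 216, 374 and 381 CPM in WT and 1205, 1439 and 1056 CPM in KO, a log2 fold change of 2.03 (adjusted p = 0.00117, SE 0.25) or 4.07-fold. Pnpla3, a relative of Pnpla2 with activity on lipid droplets, did not separate the groups. It stood at 16.2, 25.8 and 22.8 CPM in WT and 33.8, 5.43 and 21.4 CPM in KO, with both the highest and the lowest of the 6 values in KO (log2 fold change -0.003, SE 0.56, adjusted p = 0.997).

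Both regulators of lipolysis in the list fell. Adrb3, the adrenergic receptor that starts lipolysis in fat cells, went from 14.5, 13.8 and 20.2 to 0.78, 1.28 and 1.14 CPM. Its log2 fold change of -3.82 (adjusted p = 0.000162, SE 0.27) had the smallest adjusted p of all members in skin. G0s2, an inhibitor of Pnpla2, went from 22.4, 7.58 and 13.5 to 4.47, 2.14 and 3.36 CPM, a log2 fold change of -2.03 (adjusted p = 0.00987, SE 0.45). The WT levels of G0s2 differed between libraries, with Skin WT 1 highest and Skin WT 2 lowest, and its call was lost without the KO libraries with Y-linked reads (adjusted p = 0.0665).

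Triglyceride synthesis held 6 members that fell and 1 that rose. Pck1, the enzyme that makes the glycerol backbone from small precursors in fat, had the largest fall of all members, from 99.6, 112 and 144 to 9.51, 3 and 7.93 CPM. Its log2 fold change was -4.03 (adjusted p = 0.000573, SE 0.41), or 16.3-fold. Gpd1, which makes glycerol 3-phosphate from a glycolytic intermediate, went from 338, 152 and 213 to 56.3, 50.5 and 44 CPM, a log2 fold change of -2.13 (adjusted p = 0.00181, SE 0.30). Thrsp, a lipogenic factor of fat and liver, went from 44.5, 79.2 and 68.5 to 13.8, 7.92 and 13.2 CPM, a log2 fold change of -2.37 (adjusted p = 0.00103, SE 0.29). Skin KO 2 was again lowest for Pck1 and Thrsp, while for Gpd1 the lowest was Skin KO 3. Lpin1, the phosphatidate phosphatase whose promoter is shown above, went from 58.4, 40.5 and 62.2 to 20.5, 18 and 17.2 CPM, a log2 fold change of -1.44 (adjusted p = 0.00139, SE 0.19).

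Of the acyl chain enzymes 2 fell and 1 rose. Acsl1, which activates long-chain fatty acids, went from 331, 287 and 344 to 186, 179 and 179 CPM, a log2 fold change of -0.73 (adjusted p = 0.0034, SE 0.12). Agpat2, which adds the next acyl chain to the backbone, went from 31.7, 44.8 and 44.7 to 24.1, 19.4 and 21.4 CPM, a log2 fold change of -0.81 (adjusted p = 0.0082, SE 0.17). Dgat1 (ENSMUSG00000022555.11, chromosome 15, 76502015 to 76511953, minus strand), which adds the last acyl chain and completes triglyceride, rose. It went from 27.5, 32.7 and 35.2 to 83.7, 108 and 80.5 CPM, a log2 fold change of 1.61 (adjusted p = 0.000554, SE 0.16), with every KO library above every WT library.

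The regulators did not move as a group. Pparg, the nuclear receptor that drives adipocyte genes and is also made in sebaceous cells, stood at 19.7, 28.3 and 31.4 CPM in Skin WT and 19.7, 26.1 and 20.2 CPM in Skin KO. These values overlapped, and the log2 fold change was -0.17 (adjusted p = 0.527, SE 0.21). Its coactivator Ppargc1b rose from 2.169, 1.57 and 2.31 to 4.54, 5.57 and 6.79 CPM, a log2 fold change of 1.58 (adjusted p = 0.00331, SE 0.26). The related coactivator Ppargc1a, known from brown fat and muscle, was lower in KO, at 6.86, 2.56 and 5.28 against 1.49, 1.14 and 0.634 CPM. Its log2 fold change was -2.08 (adjusted p = 0.0107, SE 0.47), but with effective transcript lengths as offsets it was -1.20 and no longer called (adjusted p = 0.0833).

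Car3, a carbonic anhydrase abundant in fat cells and in muscle, fell from 3237, 1203 and 2111 to 239.5, 62.4 and 138 CPM, a log2 fold change of -3.81 (adjusted p = 0.00255, SE 0.59). Adipor2, a receptor for adiponectin, stood at 185, 216 and 235 CPM in WT and 214, 202 and 208 CPM in KO and was not called (log2 fold change 0.066, SE 0.12, adjusted p = 0.689). Adiponectin itself fell while the RNA of this receptor overlapped between the groups. Ucp1, the uncoupling protein of brown fat, had 2 reads in Skin WT and none in Skin KO, so that no fold change could be given.

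Per transcript length, the order of the members changed with the genotype. In TPM, the deposited unit that corrects for transcript length and library size, the 5 most abundant members of Skin WT by group mean were Car3, Fabp4, Adipoq, Cidec and Lpl, while in Skin KO they were Mgll, Fabp4, Plin2, Cidea and Car3. Plin1 stood at 36.9, 90.2 and 126 TPM in Skin WT and 10.3, 3.28 and 10.3 TPM in Skin KO, and Plin2 at 106, 114 and 126 and 232, 264 and 219 TPM. The ratio of Plin2 to Plin1 TPM was therefore 2.87, 1.27 and 1.00 in the WT libraries and 22.5, 80.4 and 21.2 in the KO libraries. For Mgll over Pnpla2 the ratio was 0.589, 1.05 and 0.925 in WT and 10.6, 17.5 and 10.2 in KO, and for Mgll over Lipe it was 1.65, 2.06 and 1.91 in WT and 27.6, 46.6 and 28.9 in KO. Dgat1 over Agpat2 went from 0.926, 0.683 and 0.706 to 3.24, 5.08 and 3.28. In each ratio the lowest KO library lay above the highest WT library, and Skin KO 2 was highest. These ratios were not tested.

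**Figure D3:**
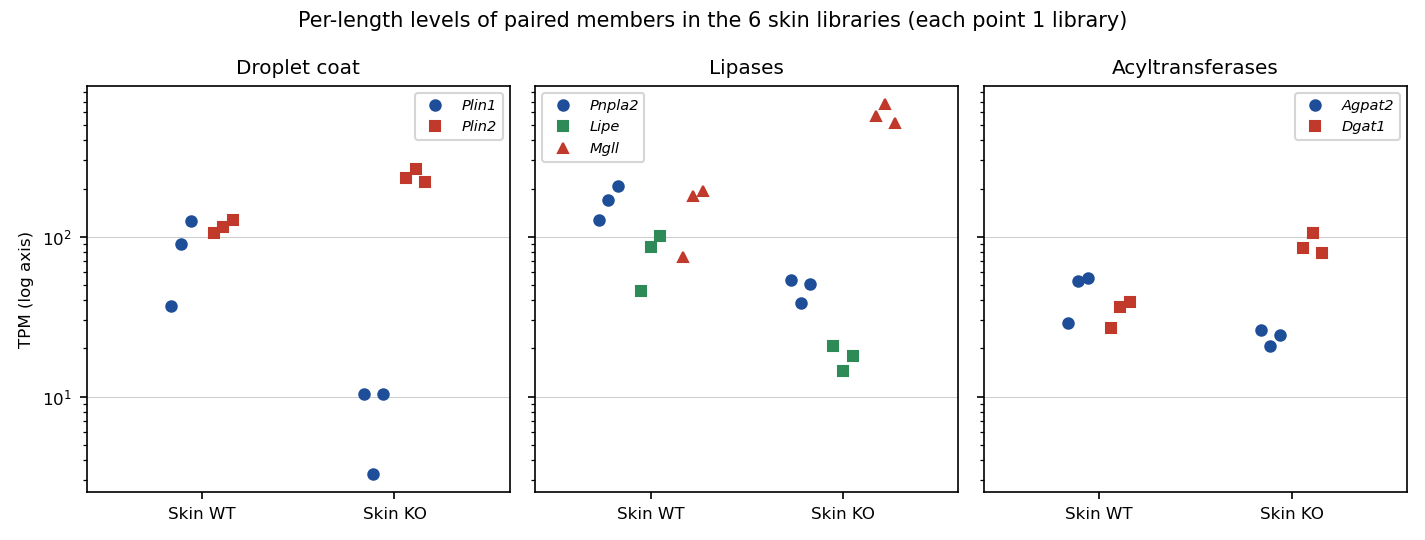
TPM on a log axis for Plin1 and Plin2 (droplet coat), for Pnpla2, Lipe and Mgll (lipases) and for Agpat2 and Dgat1 (acyltransferases) in the 3 Skin WT and 3 Skin KO libraries, with 1 point per library. Plin2, Mgll and Dgat1 lie higher in KO than in WT and the other genes of each panel lower.

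The libraries of a group differed in a shared way across the fallen members. Skin KO 2, the KO skin library without Y-linked reads, was the lowest KO library in 18 of the 25 and Skin KO 1 the highest in 20. In Skin WT, replicate 3 was highest in 14 and replicate 1 lowest in 13. Skin WT 1 was the highest WT library for 7 members (Angptl4, Slc2a4, Plin5, G0s2, Gpd1, Ppargc1a and Car3), and it also had the highest sum of muscle markers. Without the KO libraries with Y-linked reads, 17 members were called lower and 5 higher, a fit in which Skin KO 2 is assumed to vary like the WT libraries. The calls of Lpl, Cd36, Slc2a4, Plin5, G0s2, Acsl1, Agpat2, Gpd1 and Ppargc1a were lost there, and Pnpla3 was called lower. Other falls were larger, at 10.9-fold for Fabp4, 8.15-fold for Angptl4, 35.1-fold for Aqp7, 17.0-fold for Plin1, 13.3-fold for Cidec, 36.4-fold for Pck1 and 32.4-fold for Car3 (adjusted p from 0.00422 to 0.0179).

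Markers of 6 other cell types were counted in KO skin in the same fit, where 23.3% of all genes were called lower and 22.2% higher, and the shares of macrophage and keratinocyte markers called lie near these. Of the 15 skeletal muscle markers 14 fell, as did all 8 endothelial markers, whose summed level was between 129 and 142 CPM in WT and between 39.0 and 49.7 CPM in KO. Fibroblast markers fell in 4 of 8 (sum 2103 to 2856 CPM in WT, 769 to 1715 CPM in KO), and macrophage markers in 2 of 8 (275 to 326 CPM in WT, 107 to 253 CPM in KO). Sebaceous gland markers rose in 5 of 8 tested and fell in 1, with a sum of 274 to 411 CPM in WT and 1289 to 1886 CPM in KO. Keratinocyte markers rose in 2 of 7 and fell in 1 (sum 29250 to 36070 CPM in WT, 48160 to 57500 CPM in KO). The risen markers were Krt1 (mean 2426 CPM in WT, 16630 in KO) and Krt14 (3638 and 9617 CPM), and Lor fell. Krt5, Krt10, Trp63 and Dsp were not called. No marker of the 6 lists was at 0 reads in Skin WT or Skin KO. These values stand beside the falls of the 25 members and the rises of Plin2, Cidea, Mgll, Dgat1 and Ppargc1b, and their part in those changes was not tested.

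**Figure D4:**
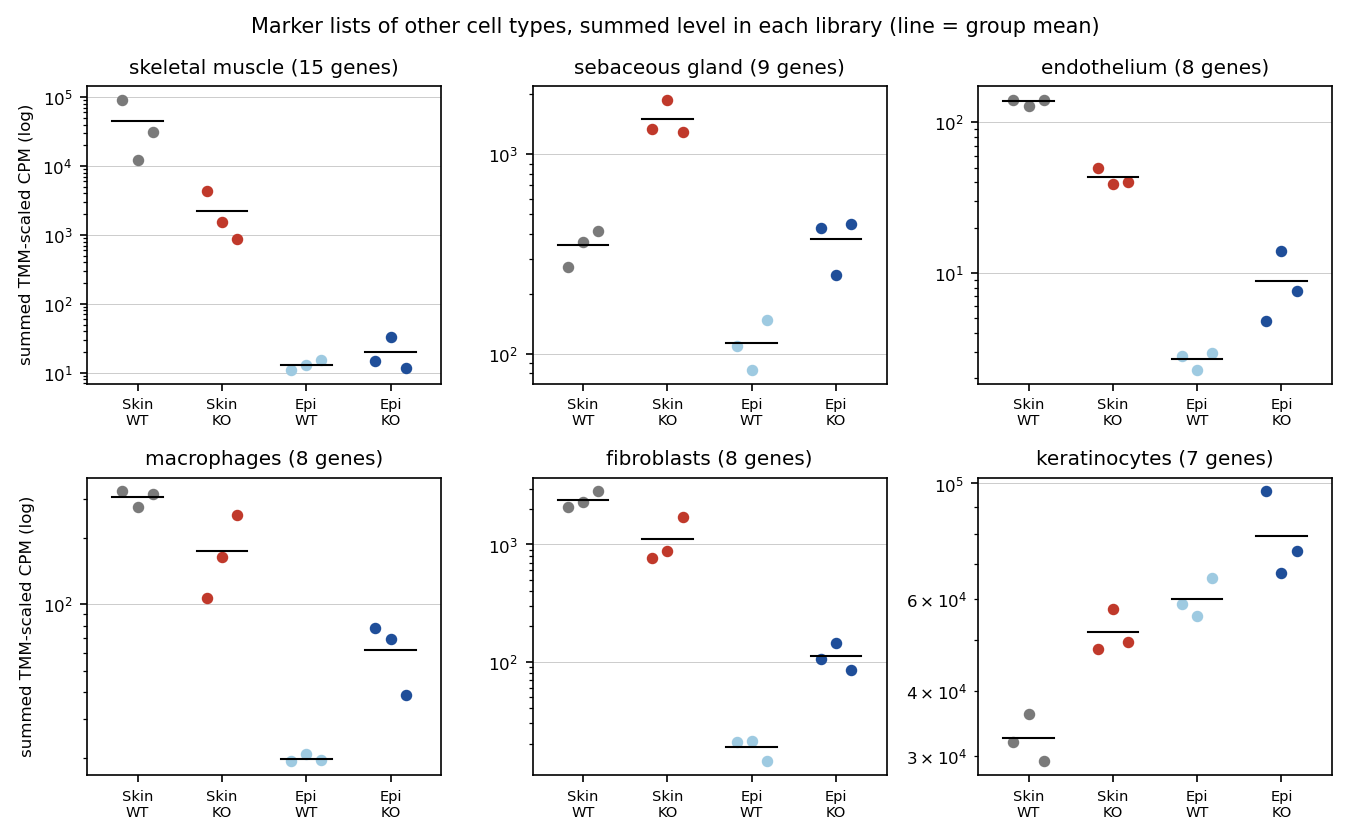
Summed TMM-scaled CPM of 6 marker lists on log axes, with 1 point per library and a line at each group mean. The muscle, endothelial, macrophage and fibroblast sums are lower in Skin KO than in Skin WT and the sebaceous and keratinocyte sums higher, without overlap. In the epidermis the muscle sums overlap, and the sums of the other lists are higher in KO than in WT, without overlap.

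Most genes of a list of adipocyte genes outside the 34 members fell in KO skin as well. Of 14 such genes 11 fell, 1 rose and 2 were not called, with a median log2 fold change of -2.18. Among all genes tested in skin, 23.3% were called lower and 22.2% higher. Not all of the 14 are confined to fat. Npr3, Lgals12, Cav1, Cavin1 and Cebpa had means of 8.39, 14.4, 181, 165 and 344 CPM in Epidermis WT, where Adipoq had 1 read. The Skin WT mean of Cebpa was 320 CPM. Others were near 0 there, such as Cfd at 0.371 CPM. The smallest adjusted p belonged to Npr3, a natriuretic peptide clearance receptor, which went from 19.9, 54.6 and 47.5 to 1.49, 0.857 and 2.54 CPM (-4.53 on the log2 scale, adjusted p = 0.000825, SE 0.51). Cdo1, a cysteine-oxidising enzyme, had -2.60 (SE 0.34), and adipsin (Cfd) -2.71 (SE 0.39), with adjusted p = 0.00136 and 0.00196. Nrg4, Cebpa and Adig are named after their values were seen, as the genes of the list that did not fall. Nrg4, a growth factor secreted by fat, rose (0.82 on the log2 scale, adjusted p = 0.0389, SE 0.26). Cebpa, which encodes a C/EBP protein, was not called (log2 fold change 0.047, SE 0.14, adjusted p = 0.809), nor was the adipocyte gene Adig (-0.001, SE 0.14, adjusted p = 0.994).

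General lipid synthesis and storage genes had no common direction in skin. Of 31 tested, 8 fell, 6 rose and 17 were not called, and the median log2 fold change was 0.13. Both counts lie near the shares of all genes, 23.3% called lower and 22.2% higher. The same shares stand beside the counts of the thermogenic and progenitor lists below. Gk, glycerol kinase, rose from 5.74, 8.78 and 9.47 to 119.8, 136 and 137 CPM, a log2 fold change of 4.13 (adjusted p = 5.51e-05, SE 0.21). Hilpda, a droplet protein that inhibits Pnpla2, rose from 6.58, 5.96 and 6.07 to 66.4, 83.4 and 57.1 CPM, a log2 fold change of 3.57 (adjusted p = 6.19e-05, SE 0.18). Gpihbp1, the endothelial anchor of lipoprotein lipase, fell from 9.52, 5.75 and 8.2 to 0.78, 0.286 and 0.634 CPM, a log2 fold change of -3.67 (adjusted p = 0.000638, SE 0.39). The thermogenic list had 5 of 10 fallen, led by Ebf2 (-3.48 on the log2 scale, SE 0.46), Kcnk3 (-3.48 on the log2 scale, SE 0.56) and Cox7a1 (-3.83 on the log2 scale, SE 0.91), with adjusted p = 0.00149, 0.00292 and 0.013. Cox7a1 is also a muscle gene and was highest in Skin WT 1 (129.5, 15.8 and 36.1 CPM). Among the 7 adipose progenitor genes tested 6 fell, led by Cd34 (-2.31 on the log2 scale, SE 0.24), Mest (-4.07 on the log2 scale, SE 0.58) and Zfp423 (-1.84 on the log2 scale, SE 0.31), with adjusted p = 0.000672, 0.00189 and 0.00362.

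In WT mice nearly all members were lower in the epidermis than in whole skin. The comparison of Epidermis WT with Skin WT, which shares its Skin WT libraries with the genotype comparison above, tested 33 members. Of these 31 were lower, against 25.3% of all 14596 genes tested, and Pnpla3 and Ppargc1b were not called. Of the 33, 14 passed the count filter through Skin WT alone (all 3 hormones, Aqp7, Slc2a4, Plin1, Plin4, Plin5, Cidec, G0s2, Pck1, Thrsp, Ppargc1a and Car3), so that their direction was set by the filter. Of the other 19, 17 were lower, with a median log2 difference of -1.87, against -0.066 over all genes. Adipoq had 14266 reads in Skin WT and 1 in Epidermis WT, a level lower by 10700-fold (95% interval 1920 to 423000) on pooled reads and TMM-scaled library sizes. For Lep, Retn and Plin1, with 1 read each in Epidermis WT, the ratios were 2170-fold (95% interval 389 to 85600), 2690-fold (95% interval 483 to 106000) and 4350-fold (95% interval 781 to 172000). The intervals cover counting error only. Aqp7 had no read there and was at least 72.2-fold lower, against 3 reads over the group. The defining adipocyte genes were thus at or near 0 in the epidermis preparation.

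Other members stood closer to their skin level in the WT epidermis. Acsl1 stood at 223, 239 and 234 CPM there, 72.3% of its Skin WT mean, and Adipor2 at 135, 154 and 139 CPM, 67.4%. Plin2 was at 76, 47.9 and 70.5 CPM (51.1%), Dgat1 at 17.4, 11.6 and 16.6 CPM (47.7%), Cidea at 23.1, 11.4 and 26.5 CPM (43.7%), Agpat2 at 22.2, 18.1 and 14.3 CPM (45.1%) and Mgll at 100.9, 99.6 and 142 CPM (35.2%). Each of these 7 was nonetheless called lower than in skin, with log2 differences from -1.52 (Mgll) to -0.50 (Acsl1). Those of Acsl1 and Adipor2 were the least certain (adjusted p = 0.027 and 0.0118), and both calls were lost without Skin WT 3 or without Epidermis WT 1, that of Acsl1 also without Epidermis WT 2 or 3. Pnpla3 was at 22.3, 29.6 and 30.1 CPM, 127% of its skin level, and Ppargc1b at 2.12, 3.17 and 3.19 CPM, 140%, both overlapping with Skin WT. These 9 members were thus measured at 35.2% of their skin level or more in a preparation where Adipoq had 1 read, and the name of adipocyte genes goes against the data for them.

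The members between these ends held 28% of their skin level or less in the WT epidermis. Fabp4 stood at 0.258% of its Skin WT mean, Cidec at 0.135%, Plin4 at 0.284%, Cd36 at 0.454%, Slc2a4 at 0.945%, Gpd1 at 1.2% and Lpl at 1.68%. Lipe and Lpin1 were at 7.16% and 9.89%, and Ppargc1a, Adrb3, Pparg, Pnpla2 and Angptl4 between 14.4% and 28%. The 5 members that rose in KO skin had WT epidermis levels from 35.2% to 140% of skin, and the 25 that fell had levels from 0% (Aqp7) to 72.3% (Acsl1). Both comparisons share the Skin WT libraries, so these values stand side by side and are not independent.

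In KO epidermis 13 lipid genes rose and 2 fell. Of 23 members tested 13 were called higher in KO, against 26.2% of all 13632 genes tested, and Angptl4 and Adrb3 were called lower, against 25.3%. The other 8 were not called. The 13 lay higher in every KO library (30.4% of all genes did) and the 2 lower in every KO library (31.6%). Slc2a4, Plin4 and G0s2 passed the count filter through Epidermis KO alone and Adrb3 through Epidermis WT alone, which sets their direction. Of the other 19, 10 were higher and 1 lower, with a median log2 fold change of 0.70, against 0.003 over all genes tested. A further 11 members, among them all 3 hormones and Plin1, did not pass.

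Cd36 and Lpl showed the clearest rises. Cd36 stood at 1.24, 0.965 and 0.95 CPM in Epidermis WT and 25.2, 18.7 and 39.4 CPM in Epidermis KO, 26.6-fold higher, with a log2 fold change of 4.74 (adjusted p = 2.17e-05, SE 0.34). Lpl went from 8.74, 5.17 and 11.7 to 47.4, 39.3 and 78.8 CPM, a log2 fold change of 2.72 (adjusted p = 0.000317, SE 0.34). Both were highest in Epidermis KO 3. G0s2 rose from 0.177, 0.0689 and 0.173 to 5.22, 11.9 and 1.13 CPM, a log2 fold change of 5.41 (adjusted p = 0.0022, SE 0.99), on 2, 1 and 2 reads in WT and 66, 149 and 16 in KO. Its size rested in part on Epidermis KO 2, without which it was 22.1-fold in place of 42.5-fold. Macrophage markers rose in 6 of 7 tested, with a summed level of 19.3, 20.8 and 19.7 CPM in Epidermis WT and 77.8, 69.8 and 38.6 CPM in Epidermis KO, and Cd163 was at 0 in Epidermis WT. Fibroblast markers rose in 7 of 7 tested, with a sum that went from 20.7, 21.02 and 14.1 CPM to 106, 145 and 84.7 CPM. Among all genes tested in the epidermis, 26.2% were called higher. Some markers passed the count filter through Epidermis KO alone, which set their direction, such as Dpt, Mrc1 and Pecam1. These had 5, 1 and 24 reads in Epidermis WT. Among the KO libraries, the macrophage and fibroblast sums were both lowest in Epidermis KO 3, an order that was not tested. Endothelial markers, from another cell type that makes Cd36, had sums of 2.83, 2.28 and 2.94 CPM in WT and 4.82, 14.1 and 7.63 CPM in KO, with Pecam1 higher (2.29 on the log2 scale, adjusted p = 0.00364) and 6 of 8 below the filter. The sebaceous gland sum was 109, 82.9 and 148 CPM in WT and 427, 249 and 448 CPM in KO. The part of any of these cells in the rises was not tested.

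Enzymes and coat proteins of lipid storage rose by smaller steps. Mgll went from 100.9, 99.6 and 142 to 426, 270 and 538 CPM, a log2 fold change of 1.86 (adjusted p = 0.000505, SE 0.25). Dgat1 went from 17.4, 11.6 and 16.6 to 42.8, 34 and 33.8 CPM (1.30 on the log2 scale, adjusted p = 0.000596, SE 0.18), and Ppargc1b from 2.12, 3.17 and 3.19 to 5.93, 8.21 and 7.49 CPM (1.36 on the log2 scale, adjusted p = 0.00231, SE 0.25). These 3 also rose in skin. Plin2 rose from 76, 47.9 and 70.5 to 112, 82.1 and 118 CPM (0.70 on the log2 scale, adjusted p = 0.0166, SE 0.20), a call that was lost without Epidermis KO 1 or without Epidermis KO 3 (adjusted p = 0.053 and 0.055). Sebaceous gland markers rose in 4 of 7 tested and fell in 1, against 26.2% of all genes called higher and 25.3% lower. Their summed level went from 109, 82.9 and 148 CPM to 427, 249 and 448 CPM. Mogat2 was the 1 marker of that list at 0 in Epidermis WT. The part of sebaceous cells in these rises was not tested.

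Lpin1, Gpd1, Slc2a4 and Plin4, which fell in skin, rose in the epidermis from much lower levels. Lpin1 went from 4.95, 5.03 and 5.96 to 9.41, 8.45 and 12.2 CPM (0.93 on the log2 scale, adjusted p = 0.00537, SE 0.20), and Gpd1 from 1.5, 3.03 and 3.89 to 8.38, 5.82 and 10.8 CPM (1.58 on the log2 scale, adjusted p = 0.00593, SE 0.36). Slc2a4 went from 0.883, 1.1 and 0.691 to 2.53, 1.67 and 3.46 CPM (1.51 on the log2 scale, adjusted p = 0.00961, SE 0.38). The levels of Slc2a4 and of Plin4 were only a few CPM in either genotype. Plin4 went from 0.265, 0.482 and 0.518 to 2.77, 1.75 and 1.34 CPM (2.18 on the log2 scale, adjusted p = 0.00349, SE 0.44), on 3, 7 and 6 reads in WT and 35, 22 and 19 in KO. Acsl1, which also fell in skin but was abundant in the epidermis, went from 223, 239 and 234 to 297, 309.7 and 284 CPM (0.37 on the log2 scale, adjusted p = 0.0193, SE 0.11), and Adipor2, not called in skin, from 135, 154 and 139 to 213, 206 and 196 CPM (0.53 on the log2 scale, adjusted p = 0.00406, SE 0.11). The call of Acsl1 was lost without Epidermis WT 1 or without Epidermis KO 2 (adjusted p = 0.0789 and 0.0772).

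Angptl4 and Adrb3 fell in both preparations. Angptl4 went from 21.1, 10.3 and 11 to 2.77, 2.95 and 5.01 CPM in the epidermis, a log2 fold change of -1.96 (adjusted p = 0.00197, SE 0.35). Adrb3 went from 3.35, 2.48 and 2.16 to 0.87, 0.558 and 0.636 CPM, a log2 fold change of -1.93 (adjusted p = 0.00203, SE 0.35). All 3 KO libraries lay below all 3 WT libraries in each gene, as in 31.6% of all genes tested. Adrb3, with 27 reads in Epidermis KO, passed the count filter through Epidermis WT alone, so its direction was set. The falls of Angptl4 and Adrb3 in the epidermis were measured where Adipoq had 1 read in WT and 7 in KO.

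The 8 members not called in the epidermis had overlapping groups. Fabp4 stood at 0.795, 3.45 and 2.76 CPM in WT and 2.06, 8.29 and 6.92 CPM in KO (1.30 on the log2 scale, adjusted p = 0.0893, SE 0.58), Cidea at 23.1, 11.4 and 26.5 and 34.2, 24.1 and 34.5 CPM (0.63 on the log2 scale, adjusted p = 0.0952, SE 0.28), and Pnpla3 at 22.3, 29.6 and 30.1 and 66.4, 26.9 and 35.5 CPM (0.66 on the log2 scale, adjusted p = 0.0919, SE 0.30). Ppargc1a and Pparg had log2 fold changes of 1.02 (SE 0.41) and 0.51 (SE 0.28), with adjusted p = 0.067 and 0.165. The lipases that fell in skin had log2 fold changes near 0 here. Pnpla2 was at 45.2, 39.8 and 51.5 CPM in WT and 44.9, 39.9 and 40.7 CPM in KO (-0.11 on the log2 scale, adjusted p = 0.499, SE 0.12), Lipe at 8.21, 8.06 and 12.5 and 9.48, 9.72 and 8.4 CPM (-0.043 on the log2 scale, adjusted p = 0.878, SE 0.21), and Agpat2 at 22.2, 18.1 and 14.3 and 23.2, 17.3 and 15.7 CPM (0.049 on the log2 scale, adjusted p = 0.858, SE 0.21).

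The 11 members below the filter had few reads in the epidermis of either genotype. Adipoq had 2, 5 and 0 reads in the 3 KO libraries, Lep 0, 3 and 2, Retn 3, 4 and 1 and Plin1 0, 2 and 1. The ratio of KO to WT reads was 6.65 for Adipoq (95% interval 0.855 to 300) and 7.6 for Retn (1.02 to 337), with intervals for counting error alone. Cidec had 4, 3 and 3 reads in WT and 4, 13 and 4 in KO, and Car3 4, 9 and 3 and 10, 27 and 6. For both genes most KO reads were in Epidermis KO 2. Pck1 had 2 reads in WT and 1 in KO, and Ucp1 had 0 and 1.

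A fit of all 12 libraries tested whether the genotype effect differed between the epidermis and whole skin. Among 33 members tested 18 had a more positive effect in the epidermis, against 10.1% of all 15394 genes, and the other 15 were not called. Of the 33, 10 passed the count filter through skin alone (all 3 hormones, Aqp7, Plin1, Plin5, Cidec, Pck1, Thrsp and Car3), and 3 of these are among the 18. Of the other 23, 15 had a more positive effect, with a median difference of log2 fold changes of 1.59, against 0.081 over all genes tested. Cd36 differed by 5.32 (adjusted p = 0.00014, SE 0.39), Lpl by 3.87 (adjusted p = 0.000445, SE 0.41) and Plin4 by 4.46 (adjusted p = 0.000445, SE 0.47), each falling in skin and rising in epidermis. A fall in skin and a rise in epidermis were also called for G0s2 (7.52 on the log2 scale, adjusted p = 0.00278, SE 1.17), Slc2a4 (4.40 on the log2 scale, adjusted p = 0.00265, SE 0.68), Gpd1 (3.78 on the log2 scale, adjusted p = 0.00111, SE 0.49), Lpin1 (2.45 on the log2 scale, adjusted p = 0.00059, SE 0.27) and Acsl1 (1.18 on the log2 scale, adjusted p = 0.000879, SE 0.14). The value of G0s2 was 6.58 without Epidermis KO 2, and that of Slc2a4 was 3.82 without Skin WT 1. In the epidermis fit Plin4, G0s2 and Slc2a4 passed the count filter through Epidermis KO alone, which set the direction of their rise there.

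Among members that fell in skin and were not called in epidermis, Fabp4 differed by 4.07 (adjusted p = 0.00387, SE 0.69), Ppargc1a by 3.17 (adjusted p = 0.0093, SE 0.65), Pnpla2 by 1.59 (adjusted p = 0.000853, SE 0.19) and Lipe by 1.92 (adjusted p = 0.00297, SE 0.30). Adrb3 fell in both preparations, but less in epidermis (difference 1.97 on the log2 scale, adjusted p = 0.0102, SE 0.41). The 5 members that rose in skin were not called for a difference. It was -0.08 (SE 0.39) for Mgll, -0.23 (SE 0.25) for Dgat1, -0.14 (SE 0.35) for Ppargc1b, -0.52 (SE 0.26) for Plin2 and -0.48 (SE 0.37) for Cidea, with adjusted p from 0.181 (Plin2) to 0.907 (Mgll). These standard errors leave room for differences in either direction. Angptl4, which fell in both, differed by 0.55 (SE 0.47) (adjusted p = 0.444). The differences of Agpat2 (0.94 on the log2 scale, adjusted p = 0.0468, SE 0.29) and Adipor2 (0.55 on the log2 scale, adjusted p = 0.0331, SE 0.15) were the least certain, with calls lost without any 1 of most libraries. Retn (5.13 on the log2 scale, adjusted p = 0.0102, SE 1.07), Cidec (3.80 on the log2 scale, adjusted p = 0.0198, SE 0.93) and Car3 (5.26 on the log2 scale, adjusted p = 0.00838, SE 1.05) were called too, on 8, 21 and 43 reads in Epidermis KO against 1, 10 and 16 in Epidermis WT. Without Epidermis KO 2 the call of Cidec was lost (2.98, adjusted p = 0.118) and Car3 differed by 4.39, and without Epidermis WT 3 Retn differed by 7.17. Adipoq and Lep were not called (adjusted p = 0.0597 and 0.0809), nor were Pparg (0.76 on the log2 scale, SE 0.36), Pnpla3 (0.74 on the log2 scale, SE 0.71), Aqp7, Plin1, Plin5, Pck1 and Thrsp.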

How the data were processed

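The 12 mouse skin libraries were made with a strand-marking mRNA kit, per the labels' protocols. STAR 2.5.1, RSEM, bcl2fastq 2.17 and the mm10 build are named in the submitters' processing notes. For the annotation release, the aligner's settings and the strand setting, the answer is not given in the sources used here. The deposited tables hold RSEM expected counts (8.42% to 9.98% of values not whole), TPM and effective lengths per gene. RSEM shares reads between similar genes by estimation, so close copies are less certain. Gene IDs without version matched GENCODE release 21 for 47224 genes, 419 were unmatched and kept their IDs, and positions are on GRCm38 (the mm10 build).

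Expected counts were rounded (a shift of at most 0.5 counts), filtered with filterByExpr, scaled by TMM and tested with edgeR 4.0.16 (quasi-likelihood) in R 4.3.3, with p-values adjusted by Benjamini-Hochberg across every gene tested and a threshold of 0.05. Each pair of groups was fitted alone, and the difference of the genotype effects over all 12 libraries. Levels are CPM with 1 TMM scaling of all 12 libraries. Standard errors are the log2 fold change divided by the square root of F. Ratios for genes with few reads carry a 95% interval and a floor of 3 counts, both for counting error only. Replicates of every group differed by more than sampling noise.

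Same-numbered WT and KO skin libraries deviated together (r = 0.339, 0.359 and 0.206 for replicates 1, 2 and 3), so the fit with the replicate number as a block is printed where it changes a skin call. This pairing comes from the data, since the labels do not say what a number stands for. WT and KO skin libraries of different numbers had r from -0.446 to 0.114. Between the WT tissues, however, libraries of different numbers reached r = 0.272 and 0.324, so the evidence for pairing is limited.

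The members and gene lists were chosen with earlier results of these data known. All 34 members could be named, and of each of the 4 lists of other genes the 3 with the smallest adjusted p in skin. DESeq2 1.42.0, limma-voom (limma 3.58.1), other scalings and filters, length offsets, a robust fit, 1 fit of all libraries and leaving out libraries were tried as alternatives.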

Additional observations from a re-analysis of the deposited data

Results flagged for a closer look

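For 18 members the effect of the knockout, as a log2 fold change, was more positive in the epidermis than in whole skin, by edgeR's quasi-likelihood test of that difference in 1 fit of all 12 libraries. Of all 15394 genes tested, 10.1% were called more positive. Among the uptake genes the difference was 5.32 for Cd36, 4.4 for Slc2a4, 4.07 for Fabp4 and 3.87 for Lpl. Of the droplet coat genes, Plin4 differed by 4.46 and Cidec by 3.8. In lipolysis and its control the values were 7.52 for G0s2, 1.97 for Adrb3, 1.92 for Lipe and 1.59 for Pnpla2. The synthesis enzymes differed by 3.78 (Gpd1), 2.45 (Lpin1), 1.18 (Acsl1) and 0.94 (Agpat2). The last 4 were Car3 with 5.26, Retn with 5.13, Ppargc1a with 3.17 and Adipor2 with 0.55.

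The values of Retn, Cidec and Car3, which passed the count filter through skin alone, rest on 8, 21 and 43 reads in Epidermis KO. Over the same 4 groups, the difference was called more positive for all 8 fibroblast markers, 6 of 8 macrophage markers, 6 of 8 endothelial markers and 8 of 15 muscle markers. The same share of 10.1% of all genes stands beside these counts. Markers near 0 in the epidermis passed the count filter through skin alone, such as Ttn (2 reads in Epidermis WT, 20 in KO) and Kdr (3 and 5). The part of these cell types in the members' differences was not tested.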

How the results depend on the processing

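Leaving out 1 library at a time gave 4942 to 7772 called genes in skin (6780 with all), with 5 members higher and 23 to 24 lower. In the epidermis it gave 5853 to 6573 genes (7015 with all), 12 to 14 members higher and 2 lower. Between the WT tissues it gave 4198 to 7830 genes (6257 with all) and 29 to 31 members lower. For the difference of effects it gave 1392 to 3938 genes (2539 with all) and 15 to 20 members. That count was 3938 without Skin WT 1, 1436 without Skin WT 3, 1392 without Skin KO 2, 1582 without Epidermis WT 3 and 1413 without Epidermis KO 2. Without the KO libraries with Y-linked reads 2662 genes were called in skin, from fewer samples. All 3 Epidermis KO libraries held such reads, so no fit without them was possible there. The genotype effect in the epidermis, and with it the difference of effects, cannot be told apart from a difference in Y-linked reads.

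With the replicate number as a block, 6568 genes were called in skin, 6766 in epidermis, 5232 between the WT tissues and 2195 for the difference of effects. The numbers were not taken to pair the other comparisons, where same-numbered libraries had r = 0.0747, 0.139 and -0.055 (epidermis) and -0.0917, 0.0303 and -0.244 (WT tissues). The block lost the skin call of Cd36, the WT tissue call of Acsl1 (adjusted p = 0.0795) and the difference of Adipor2 (0.0728). It gained Fabp4 (0.00468) and Cidea (0.0134) in epidermis and the difference of Plin5 (0.0356), and changed no other call of a member. DESeq2 called 24 members for the difference of effects.

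The sign turned only for members that were not called, and the cause was not tested. In skin Adipor2 was -0.027 in 1 fit of all 12 libraries and -0.033 to 0.132 with 1 library left out, Pnpla3 was -0.579 to 0.429, and Pparg was 0.099 without the KO libraries with Y-linked reads. In epidermis Lipe ranged from -0.164 to 0.181 and Agpat2 from -0.135 to 0.204. For the difference of effects Mgll ranged from -0.375 to 0.148 and Ppargc1b from -0.312 to 0.014. Depth limits the 11 members with few epidermis reads.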

Other observations

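Lipid genes outside the 34 members also changed in KO epidermis. Of 28 lipid synthesis and storage genes tested, 15 rose and 6 fell, with a median log2 fold change of 0.45, against 26.2% of all genes called higher and 25.3% lower. Gk, glycerol kinase, stood at 6.36, 6.00 and 5.96 CPM in Epidermis WT and 142.8, 150.2 and 83.1 CPM in Epidermis KO (log2 fold change 4.37, SE 0.25, adjusted p = 7.93e-06 by edgeR). Hilpda, the inhibitor of Pnpla2, went from 7.33, 6.07 and 5.96 to 28.5, 22.9 and 23.7 CPM (1.97, SE 0.16, adjusted p = 4.29e-05). Every KO library lay above every WT library for both genes, which also rose in whole skin. Gpihbp1 had no read in any epidermis library.

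Among 10 other adipocyte genes tested in the epidermis, 2 rose and 4 fell, against 26.2% of all genes called higher and 25.3% lower. The risen genes were Pde3b (log2 fold change 2.26, SE 0.40, adjusted p = 0.0018 by edgeR) and Adig (1.74, SE 0.37, adjusted p = 0.00488). Npr3 went from 9.27, 8.89 and 6.99 to 0.0791, 1.12 and 0.565 CPM (log2 fold change -3.80, SE 0.51, adjusted p = 0.000487 by edgeR). Cd34, which marks adipose progenitors and also hair follicle stem cells, went from 55.9, 35.1 and 33.3 to 5.85, 8.29 and 5.08 CPM (-2.68, SE 0.26, adjusted p = 0.00011 by edgeR). It was 1 of 4 progenitor genes tested there, of which 2 rose and 1 fell. Among 6 thermogenic genes tested 2 rose and 1 fell. The same shares of all genes stand beside the progenitor and thermogenic counts.

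The 34 members together made up 0.649% to 0.838% of all counts in Skin WT and 0.33% to 0.372% in Skin KO. In the epidermis their share was 0.0665% to 0.0673% in WT and 0.107% to 0.145% in KO. The groups did not overlap in either preparation, and these shares were not tested.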
